A study of Mus musculus with 28 samples.

Results

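Livers of mice that expressed human APOBEC3B (A3B), a cytosine deaminase, were compared with control livers in the 6 libraries for which the deposited values are TPM per gene, the share of each gene in a library's reads after division by gene length. These 6 were chosen by their columns in the gene-level table, 3 A3B livers (mice 23, 28 and 70) and 3 control livers (mice 11, 91 and 92), out of 28 samples of liver, lung and pancreas in the series. The question was which transcripts differ in the liver when the deaminase is switched on in the adult animal. A3B fused to turboGFP was placed at the Col1a1 locus under a tetracycline operator, and the CAGs-rtTA3 transgene, active in most tissues and not in hepatocytes alone, drove it when doxycycline was given in the food at 625 ppm from an age of 4 weeks. The A3B livers carried both transgenes (labelled A3B + CAGS-rtTA), were labelled with 14 days of treatment for mice 23 and 28 and 10 days for mouse 70, and came from animals killed at a humane end point. All 3 controls were labelled with 15 days of treatment. Controls 91 and 92 were labelled A3B only, without the driver, whereas control 11 was labelled with both transgenes. The study's methods give doxycycline to control littermates that lacked 1 of the transgenes, while its list of mice gives no days on doxycycline for the 3 controls. The days of treatment and the terminal state of the animals cannot be told apart from A3B expression in this comparison.

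A3B is one of the APOBEC3 enzymes of primates, which convert cytosine to uracil in single-stranded DNA and, for some members, in RNA. Mice have a single Apobec3 gene and no A3B, so the transgene transcript can be told from the mouse genes. The liver makes cholesterol and fatty acids under the SREBP transcription factors, turns cholesterol into bile acids, clears foreign compounds with cytochrome P450 enzymes and secretes plasma and urinary proteins. Growth hormone from the pituitary gives many of these genes their sex-dependent level in rodents, and fasting and glucocorticoids shift the organ from making lipid to releasing glucose and burning fat.

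Promoter sequences are shown for genes at which 3 of the gene groups described here meet a short known motif. They were read from the RefSeq promoter table (GRCm38.p6, the strand of the gene, 250 bases before to 50 after each start), with 1 copy of the motif in capitals. Searched on both strands were TCACNCCAC for a sterol element, GAAANNGAA for the core of an interferon element and CACGTG, a palindrome, for the E-box bound by clock factors, and copies were allowed to overlap. Elements of the amino acid, antioxidant and hypoxia responses were also searched and are not shown.
Hmgcs1 (chr13:119690198-119690238, plus strand): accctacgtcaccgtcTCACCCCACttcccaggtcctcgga
Ifit1 (chr19:34640764-34640804, plus strand): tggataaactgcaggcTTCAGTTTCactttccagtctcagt
Per1 (chr11:69098766-69098806, plus strand): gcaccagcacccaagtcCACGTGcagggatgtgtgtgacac
Cry1 (chr10:85185091-85185131, minus strand): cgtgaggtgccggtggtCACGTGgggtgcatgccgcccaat
In Hmgcs1 the sterol letters began 137 bases before the start, and they occurred in 1.24% of 32851 promoters and in 1 of the 12 cholesterol genes called below that had a promoter in the table. In Ifit1 the copy in capitals lay 109 bases before the start. A further copy that overlaps it, at 103 bases, and another at 84 bases are not marked. The interferon core was present in 20 of the 27 interferon-stimulated genes tested that had a promoter, 74.1%, against 8.56% of all promoters. The E-box was found in 7.15% of all promoters, in 11.9% of those of genes tested, in 4 of 14 clock genes tested (28.6%), Per1 and Cry1 among them, and in 4 of 17 cholesterol genes tested (23.5%). These matches describe the sequence only.

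The 6 libraries held 23188377 to 42846882 reads, recovered from the TPM values, with the 2 lowest totals in controls 91 and 92. Controls 91 and 92 were the most alike pair (Pearson r = 0.990 across genes on the log2 scale), control 11 stood further off (r = 0.946 and 0.949), and A3B livers 28 and 70 were the least alike pair of their group (r = 0.826). Y-linked genes summed to 116 RPM (reads relative to the library total) in control 11 and to at most 0.29 in each of the other 5 livers, so control 11 was the only male. Genotype, sex and library 11 cannot be told apart among the controls. Hepatocyte markers were abundant in every library, with 17627 to 29250 RPM summed over 9 markers in A3B livers and 25066 to 33670 in controls. Gene lengths implied by the table matched the annotated gene spans to within 5% in only 18.3% of genes, so TPM levels are compared here between livers for 1 gene and never between genes, and 60 of 1981 genes that are abundant in livers of the other mice, the globin genes among them, are listed at 0 in all 6 livers.

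The transgene was checked first. A3B stood at 1705 TPM in A3B liver 23, 705 in liver 28 and 1585 in liver 70, against 0.14, 0.14 and 0.093 in controls 11, 91 and 92. In reads these were 92472, 42718 and 76332 against 8, 5 and 3. The A3B livers averaged 1332 ± 546 TPM (SD, n = 3) and the controls 0.127 ± 0.0295 (SD, n = 3), with no overlap, and the two-sided exact permutation p of 0.1 is the smallest that 3 against 3 can give. Control 11, labelled with both transgenes, was at the level of the controls without the driver. Normalisation to Tbp, the TATA-binding protein, kept the order of the groups, with a log2 difference of 11.69, although Tbp itself was listed at 6.38 to 8.91 TPM in A3B livers and at 1.77 to 4.48 in controls.

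In the 6 livers 11507 genes averaged 1 TPM or more and were tested, and 699 were higher and 214 lower in A3B livers (limma on log2(TPM + 1), adjusted p under 0.05), which is 6.07% and 1.86%. The values of all 3 A3B livers lay above all 3 controls in 28.5% of genes and below them in 10.3%. On this scale the median difference of all genes was 0.39 in log2, and with median-of-ratios scaling, which sets that median to 0.00, the split turned to 336 higher and 414 lower. Differences below are on the TPM scale unless said otherwise and should be read against that shift of 0.39. The number of calls rested on single libraries. Without control 91 the transgene was the 1 gene that passed, without control 92 there were 9, and without A3B liver 23 there were 55, whereas 1562 passed without control 11. Every limma call on a mouse gene in these 6 livers given below was thus lost without control 91, although each called gene named from the rule or the lists kept its direction when any 1 liver was left out and with median-of-ratios scaling.

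The 15 largest falls are given first. Serpina4-ps1, annotated as a pseudogene of the serpin cluster (chr12:104080649-104086724), was at 1.97, 0.99 and 15.7 TPM in A3B livers 23, 28 and 70 against 1120, 1291 and 2049 in controls 11, 91 and 92, a log2 difference of -8.28 ± 0.76 (SE, adjusted p = 0.0095, limma). Hsd3b5, a male-biased steroid dehydrogenase (chr3:98618634-98630252), was at 0.04, 0.49 and 12.4 TPM against 397, 99.5 and 86.3. It was highest in the male control, yet all A3B livers also lay below the 2 female controls. Dio1, the deiodinase that activates thyroid hormone, was at 0.28, 0.07 and 1.90 TPM against 28.5, 59.1 and 48.3 (log2 difference -4.81 ± 0.47, adjusted p = 0.0109, limma). Slc22a7, an organic anion transporter, was at 0.40, 0.17 and 2.71 TPM against 38.0, 95.2 and 79.0, and Car3, a carbonic anhydrase, was at 3.04, 0.78 and 118 TPM against 1202, 597 and 619. For each of these 5 genes A3B liver 70 was nearest to the controls. Selenbp2, Ces3b, Serpina12 and Enho followed with log2 differences from -5.05 to -4.52, and the other 6 of the 15 largest falls, Cyp1a2, Scd1, Slco1a1 and 3 Mup genes, are described further on. Of these 15, Car3, Hsd3b5, Selenbp2, Ces3b, Cyp1a2 and Slco1a1 did not pass by edgeR on reads, with adjusted p from 0.0509 to 0.114 (edgeR). Serpina12 and Enho encode the secreted proteins vaspin and adropin.

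Plin4 had the largest rise of the mouse genes. Plin4, a lipid droplet coat protein (chr17:56100591-56109803), was at 349, 74.0 and 620 TPM in A3B livers 23, 28 and 70 against 5.37, 1.81 and 3.23 in controls 11, 91 and 92, a log2 difference of 5.91 ± 0.76 (SE, adjusted p = 0.0145, limma). Defb1, a defensin (chr8:21776599-21795185), was at 591, 2645 and 253 TPM against 13.6, 30.2 and 6.87. Sult1e1, the sulfotransferase that inactivates oestrogen (chr5:87575969-87591594), was at 57.7, 54.2 and 40.5 TPM against 0.07, 0.21 and 1.33, and here the A3B livers were close to each other. Lcn2, the iron-binding acute phase protein lipocalin 2 (chr2:32384633-32388252), was at 140, 210 and 170 TPM against 2.77, 6.47 and 10.8 (log2 difference 4.63 ± 0.45, adjusted p = 0.0109, limma). Hilpda, which inhibits lipolysis at the droplet, varied more and stood at 902, 3271 and 352 TPM against 48.4, 39.8 and 34.5. Tuba8, a tubulin, was at 101, 47.4 and 15.7 TPM against 2.01, 0.38 and 0.50. AA986860, annotated as protein-coding, Gm11827, a long non-coding RNA, and 4732416N19Rik, an entry of unsettled type, rose by 4.17 to 4.43 in log2. Mir7666 and Mir191 met the same rule on 63, 58 and 9 reads against 5, 1 and 0, and on 17, 21 and 5 reads against 1, 0 and 0, so that few reads stand behind these 2 entries.

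**Figure D1:**
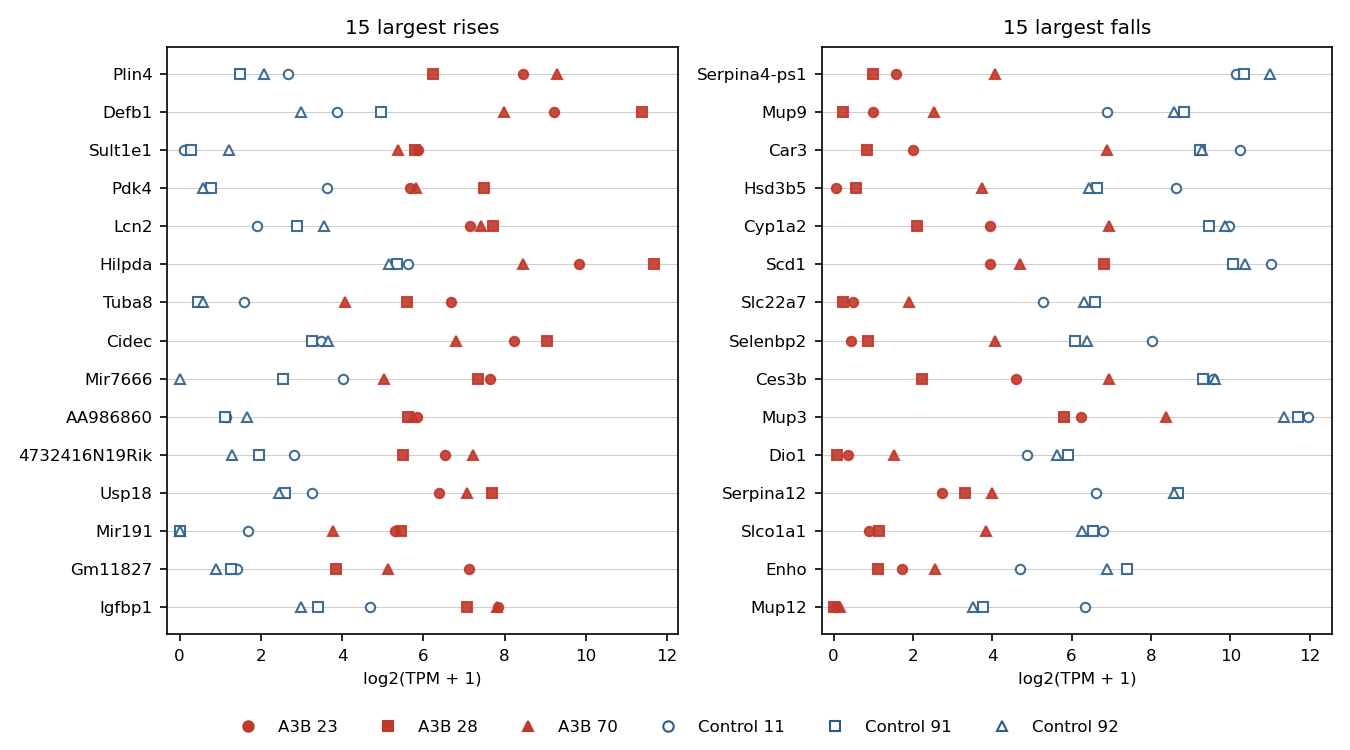
Level of the 15 genes with the largest rise and the 15 with the largest fall, as log2(TPM + 1) on the horizontal axis, 1 point for each liver (red, A3B livers 23, 28 and 70; blue outlines, controls 11, 91 and 92). The groups do not overlap, which the choice of genes required, and A3B liver 70 (triangle) is the A3B liver nearest to the controls in most falls, as for Car3 at 118 TPM.

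Cholesterol synthesis was the list with the most calls in one direction. Of its 25 genes tested, 15 fell, none rose and 24 had a negative difference, and in 20 all A3B livers lay below all controls, as in 10.3% of all genes. The median log2 difference was -2.21, against 0.39 for all genes, and it was -2.49, -2.66 and -1.48 in livers 23, 28 and 70 taken one at a time. Hmgcs1, the HMG-CoA synthase whose promoter is printed above, was at 17.0, 17.8 and 46.2 TPM against 168, 158 and 184 (log2 difference -2.76 ± 0.42, adjusted p = 0.0223, limma). Sc5d, a late desaturase of the pathway, was at 55.6, 47.6 and 100.1 TPM against 411, 358 and 371. Mvd, mevalonate decarboxylase, was at 8.99, 6.51 and 6.24 TPM against 36.9, 47.7 and 94.3, and Mvk, mevalonate kinase, was at 5.98, 4.82 and 6.58 against 23.5, 26.3 and 40.2. The called steps thus ran from the mevalonate enzymes (Hmgcs1, Mvk, Pmvk, Mvd, Idi1, Fdps) through Sqle, Cyp51, Msmo1, Nsdhl and Tm7sf2 to Sc5d. Not every step was called, with Hsd17b7, Ebp and Dhcr7 among the 10 genes that did not pass. With median-of-ratios scaling 16 of the list fell. When 1 liver was left out it was 19 without A3B liver 70, 13 without A3B liver 28, 12 without control 11 and 0 without A3B liver 23, control 91 or control 92.

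Fatty acid synthesis moved the same way with fewer calls, and the 2 lists were not tested against each other. Of 19 genes tested, 5 fell and none rose, with a median of -1.58. Scd1, the desaturase that makes oleate (chr19:44394455-44407879), was at 14.5, 112 and 24.9 TPM against 2097, 1072 and 1312 (log2 difference -5.33 ± 0.71, adjusted p = 0.0162, limma). Here liver 28 was the A3B liver nearest to the controls. Fasn, fatty acid synthase, was at 46.3, 31.4 and 107 TPM against 311, 197 and 467, and Srebf1, which encodes the SREBP-1 factor, was at 6.47, 14.8 and 10.9 against 64.1, 38.1 and 53.1. No gene of this list passed without A3B liver 23, control 91 or control 92. Fads1 and Fads2, the desaturases of polyunsaturated fatty acids, fell by 2.39 and 2.02 in log2, but did not pass by edgeR on reads (adjusted p = 0.0508 and 0.0539, edgeR), which called 3 of the list. Acaca, Acacb, Acly and Gpam did not pass, with differences from -0.77 to -0.13.

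**Figure D2:**
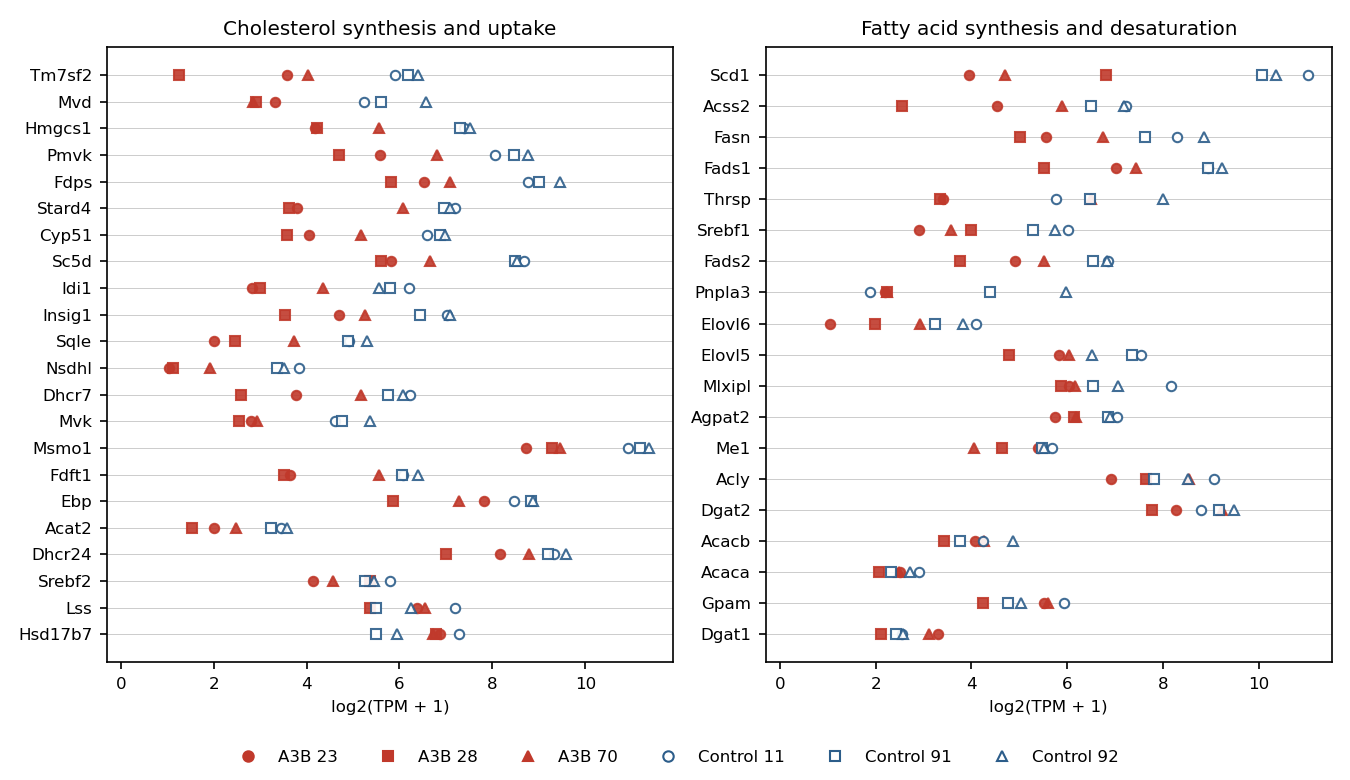
Level of the genes of cholesterol synthesis and uptake (left) and of fatty acid synthesis and desaturation (right) in each liver, as log2(TPM + 1), ordered by the difference between groups, with the same symbols for A3B livers (red) and controls (blue outlines). In the left panel 20 of the 25 genes tested had all A3B livers below all controls (22 of the 25 are drawn), and in the right panel 11 of 19 did, against 10.3% of all genes.

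Genes that depend on growth hormone or that encode major urinary proteins fell in 7 of 19 members tested, and 1, Igfbp1, rose. Mup3, a urinary pheromone carrier, was at 74.3, 54.9 and 331 TPM against 3990, 3346 and 2628. Mup1 was the other Mup gene of the list that was called. Outside the list, Mup9 was at 0.98, 0.18 and 4.74 TPM against 118, 454 and 381 and Mup12 at 0.05, 0 and 0.11 against 79.7, 12.5 and 10.4, but Mup genes are nearly identical to each other and the division of reads among them is uncertain. Ghr, the growth hormone receptor, was at 1.61, 1.29 and 6.28 TPM against 21.7, 14.0 and 12.4, and Igfals, the serum partner of IGF-1, was at 47.3, 38.7 and 147 against 370, 626 and 753. Igf1 itself was not called (log2 difference -0.80, adjusted p = 0.206, limma). Igfbp2 fell by 2.27 in log2, whereas Igfbp1, the binding protein that fasting induces, was at 228, 133 and 225 TPM against 24.6, 9.60 and 6.87 (log2 difference 3.89 ± 0.49, adjusted p = 0.0133, limma). Male-biased markers summed to 359 to 497 RPM in A3B livers, 8628 in control 11 and 2837 and 1045 in controls 91 and 92, but members differed, and Cyp4a12a and Cyp2d9 were higher in each A3B liver than in controls 91 and 92, at 41.5, 6.53 and 10.3 RPM against 0.123 and 0.0431 and at 354, 84.5 and 64.7 against 20.2 and 19.97. Female-biased markers summed to 13.7 in control 11, 6893 and 7584 in controls 91 and 92 and 182 to 2563 in A3B livers, and the part of sex in this list was not tested. Without control 11, 6 of the list fell and 1 rose, without control 92 only 1 gene fell, and without A3B liver 23 or control 91 there was no call.

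Bile acid, drug and plasma protein genes had negative list medians but few members that passed. In bile acid synthesis and transport 3 of 19 genes fell, with a median of -1.54 that was -0.84 without A3B liver 28. These were Cyp7b1, the hydroxylase of the alternative pathway, at 0.19, 0.08 and 0.44 TPM against 14.0, 8.28 and 7.38, Hsd3b7 and the transporter Slco1a1, at 0.86, 1.20 and 13.3 against 110, 91.8 and 76.3. Cyp7a1, the rate-limiting enzyme of the classic pathway, was not called at 18.3, 0 and 51.7 TPM against 109, 134 and 126 (adjusted p = 0.105, limma). Among 25 cytochrome P450 and conjugation genes, with a median of -1.30 that was -0.61 without A3B liver 28, Cyp1a2 and Gsta3 fell, and neither was called by edgeR on reads. Cyp1a2 was at 14.5, 3.26 and 122 TPM against 997, 706 and 938. For coagulation and complement limma called none of 27 genes, while 11 had an unadjusted p under 0.05, edgeR called 0 and DESeq2 10, all lower, and the median was -1.10, or -0.68 without A3B liver 28. The urea cycle and amino acid genes had no call by limma or edgeR among 23 (4 with an unadjusted p under 0.05, DESeq2 1 higher and 1 lower), and Cps1 showed how far the A3B livers spread, at 202, 24.7 and 301 TPM against 294, 109 and 150.

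Of 20 lipid droplet and lipoprotein genes 3 rose, Plin4, Cidec and the fatty acid transporter Cd36, and Fitm1, which helps droplets form, fell. Cidec, which fuses droplets, was at 298, 526 and 111 TPM against 10.1, 8.58 and 11.5, and Cd36 at 74.3, 95.7 and 109 against 21.1, 8.50 and 5.03. Apob, the protein of lipoprotein particles, was at 298, 323 and 308 TPM against 683, 337 and 372 and was not called. Adipocyte markers, of which Cidec is one, summed to 72.4 to 431 RPM in A3B livers and 13.3 to 16.3 in controls. The 2 of 7 markers that were tested lay above every control in all A3B livers, as did 28.5% of all genes. Fabp4 was at 21.3, 123 and 15.3 RPM against 7.77, 11.0 and 8.15, Adipoq had at most 0.755 RPM in any liver and Plin1 at most 0.307, and Lep and Cfd are listed at 0. The part of these cells in the rises was not tested. Among 22 genes of fatty acid oxidation and fasting 2 rose and 2 fell, against 6.07% and 1.86% of all genes. Pdk4, which spares glucose, and Angptl4, a lipase inhibitor, rose, and Acaa1b and Bdh1 fell. The list median was 0.22, or 0.039 without A3B liver 23 and 0.54 without A3B liver 28. By edgeR on reads 0 of this list rose and 1 fell (adjusted p = 0.0695 for Pdk4 and 0.0687 for Angptl4, edgeR). Pdk4 was at 49.5, 180 and 55.1 TPM against 11.3, 0.72 and 0.48. Of the gluconeogenesis list Igfbp1 alone was called. G6pc, which releases glucose, was at 488, 8.71 and 1298 TPM against 358, 133 and 180, so that the A3B livers lay on both sides of the controls.

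Among 20 p53 targets 6 rose and none fell, against 6.07% and 1.86% of all genes. The list median was 0.97, against 0.39 for all genes, and 0.56 with median-of-ratios scaling. Cdkn1a, the cell cycle inhibitor p21, was at 11.6, 8.80 and 12.6 TPM against 0.89, 0.81 and 0.15 (chr17:29090976-29100727; log2 difference 2.91 ± 0.32, adjusted p = 0.0109, limma). Btg2, an antiproliferative factor, was at 220, 443 and 406 TPM against 31.6, 19.6 and 19.2, and Trp53inp1 at 285, 464 and 393 against 59.3, 27.0 and 22.7. Mdm2, the ligase that removes p53, rose by 2.09 in log2, Sesn2 by 1.77 and Rrm2b by 1.54. Trp53 itself, Bax and Fas did not pass, with differences from -0.31 to -0.10. The 6 also rose with median-of-ratios scaling, where Bbc3 fell, and the list had 6 or 7 higher genes without control 11, A3B liver 28 or A3B liver 70, 2 without A3B liver 23 and 0 without control 91 or control 92. Immediate early genes rose in 6 of 19, against 6.07% of all genes, with a median of 2.07 that was 1.12 without A3B liver 28. With median-of-ratios scaling 4 rose, without A3B liver 23 also 4, and without control 91 or control 92 it was 0. Myc (chr15:61985391-61990374) was at 96.6, 127 and 57.5 TPM against 7.27, 8.06 and 7.65, and Jun at 201, 399.7 and 440 against 103, 57.9 and 47.0. Fosl2, Maff, Klf4 and Btg2 were the others, whereas Egr1 was at 17.1, 109 and 11.3 TPM against 44.2, 26.8 and 2.7. Glucocorticoid-responsive genes rose in 5 of 17, with a median of 1.80, namely Sult1e1, Cdkn1a, Zbtb16, Per1 and Sgk1. That median was 1.19 without control 11 and 1.06 by edgeR on reads. With median-of-ratios scaling 4 rose, without A3B liver 23 it was 2, without control 92 1 and without control 91 0. Zbtb16 was at 139, 31.9 and 99.5 TPM against 5.90, 4.57 and 5.09 and Sgk1 at 20.9, 50.6 and 124 against 6.44, 9.52 and 5.35. Fkbp5 and Tsc22d3 were not called. In the integrated stress response 3 of 27 rose, Ddit4, Phgdh and Sesn2, against 6.07% of all genes. Only 1 rose without A3B liver 23 and 0 without control 91 or control 92. Atf4 was at 173, 188 and 130 TPM against 106, 126 and 140. Btg2, Cdkn1a and Sesn2 are each counted in more than 1 of the lists of this paragraph.

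Interferon-stimulated genes differed from liver to liver. Of 37 tested 3 rose, Usp18, Ifit1 and Mx2, and none fell, a share near the 6.07% of all genes called higher. Mx2 did not pass with median-of-ratios scaling, edgeR on reads called 4 of the list higher and DESeq2 12. Usp18, the protease that removes ISG15 from proteins (chr6:121245906-121270917), was at 82.2, 205 and 133 TPM against 8.51, 5.01 and 4.41 (log2 difference 4.29 ± 0.42, adjusted p = 0.0109, limma). Ifit1, whose promoter carries the motif printed above, was at 44.1, 154 and 24.3 TPM against 8.76, 3.72 and 5.99. The median of the list was 1.01, made up of -0.13 in liver 23, 3.02 in liver 28 and 0.82 in liver 70, and it was 0.43 without liver 28. Irf7 showed the same spread at 8.11, 231 and 35.6 TPM against 14.4, 11.6 and 11.99, and Isg15 was at 82.6, 445 and 30.2 against 13.8, 24.8 and 18.8, neither of them called. Inflammatory genes rose in 2 of 25, near the 6.07% of all genes, namely the interleukin receptor Il1r1 and the NF-kB regulator Nfkbiz, of which Nfkbiz did not pass with median-of-ratios scaling, and among 23 acute phase proteins Lcn2 alone rose. Saa1, a main acute phase protein, was at 205, 765 and 371 TPM against 294, 157 and 131 (adjusted p = 0.204, limma). Neutrophil markers were summed at 40.9, 110 and 9.1 RPM in livers 23, 28 and 70 against 5.7 to 11.4 in controls. Of 6 neutrophil markers tested limma called 0, with 4 at an unadjusted p under 0.05, edgeR called Retnlg and DESeq2 called 5 higher and 1 lower. The part of these cells in the rises was not tested.

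RNA-binding and splicing proteins had 33 of 35 members with a positive difference (94.3%, against 67.5% of all genes tested). Of the 35 tested 7 rose and 31 had all A3B livers above all controls, which 28.5% of all genes had, with a median of 1.01. Tra2a, a splicing activator, was at 20.5, 23.7 and 18.8 TPM against 7.97, 6.36 and 4.88, and Hnrnpa1 at 104, 105 and 112 against 48.2, 32.2 and 30.7. Rbm39, Hnrnpd, Tra2b, Ythdc1 and Rbm3 were the others. The call depended on scaling and on the controls: with median-of-ratios scaling 1 gene rose and the median was 0.57, edgeR on reads called 2, without control 11 it was 17, and without A3B liver 23, control 91 or control 92 it was 0. Members of the Apobec and Adar families and their cofactors gave 1 call of 7, Syncrip, a cofactor of Apobec1, at 6.18, 6.37 and 4.30 TPM against 2.43, 1.38 and 1.24, which was lost with median-of-ratios scaling (adjusted p = 0.0669, limma). Apobec1, the mouse RNA editor, was at 19.7, 59.8 and 29.96 TPM against 28.8, 16.8 and 13.5 and Apobec3 differed by 0.09 in log2. Among 7 genes with edited sites in liver that the study singled out, a list it chose with samples of this series, Ccp110 and Larp4 rose, at 7.36, 6.38 and 10.1 TPM and 6.03, 5.78 and 4.93 TPM against 1.70, 0.45 and 0.44 and 2.47, 0.97 and 0.98. Only 1 of the 7 was called with median-of-ratios scaling or by edgeR on reads, and 0 of 7 by edgeR in the livers of other mice described below. No gene of uracil repair and the DNA damage response was called by limma among 21 (4 with an unadjusted p under 0.05). Ung, the glycosylase that removes uracil from DNA, was at 12.7, 6.34 and 6.22 TPM against 1.68, 2.69 and 3.33, with no overlap (log2 difference 1.36, adjusted p = 0.0592, limma), and edgeR on reads called Chek1, a checkpoint kinase whose mean was under 1 TPM, higher, while DESeq2 called 1 higher and 2 lower.

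In the circadian clock Per1 and Cry1, both with the E-box printed above, rose and Nr1d1, the repressor Rev-erb alpha, fell, of 17 tested. Per1 was at 42.8, 36.8 and 24.8 TPM against 0.57, 4.92 and 4.67, and Nr1d1 at 6.16, 8.71 and 5.97 against 54.0, 18.5 and 31.3, and the hour of death was not given in the sources used here. By edgeR on reads Per1 and Cry1 did not pass (adjusted p = 0.0671 and 0.0502, edgeR). Among 21 cell cycle genes Ccne2, Mcm4 and Rrm2 rose and Aurka fell, but Mcm4 and Rrm2 did not pass with median-of-ratios scaling or by edgeR on reads, and the list median of 0.36 was -0.45 by edgeR. Bmf, a pro-apoptotic protein, was the 1 call of 24 cell death regulators and fell from 13.7, 19.8 and 18.5 TPM in controls to 2.55, 2.86 and 1.75. Zinc transporters Slc39a14 and Slc30a1 rose among 17 metal genes, though neither passed with median-of-ratios scaling. Cebpd rose among 20 hepatocyte transcription factors, Tbk1 among 14 genes of nucleic acid sensing, Nlrc5 among 15 of antigen presentation and Pfkfb3 among 21 of hypoxia and glycolysis. Nlrc5 and Pfkfb3 did not pass with median-of-ratios scaling. A single call in lists of this size is near the 6.07% of all genes called higher. For heat shock proteins, NRF2 targets, respiratory chain subunits, cytosolic ribosomal proteins, proteasome subunits and extracellular matrix genes limma called 0, with 5 of 18, 6 of 21, 2 of 39, 0 of 44, 1 of 31 and 4 of 19 at an unadjusted p under 0.05. By edgeR on reads these 6 lists had 0 calls as well, and DESeq2 called 2, 3, 4, 0, 0 and 5 genes in them.

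**Figure D3:**
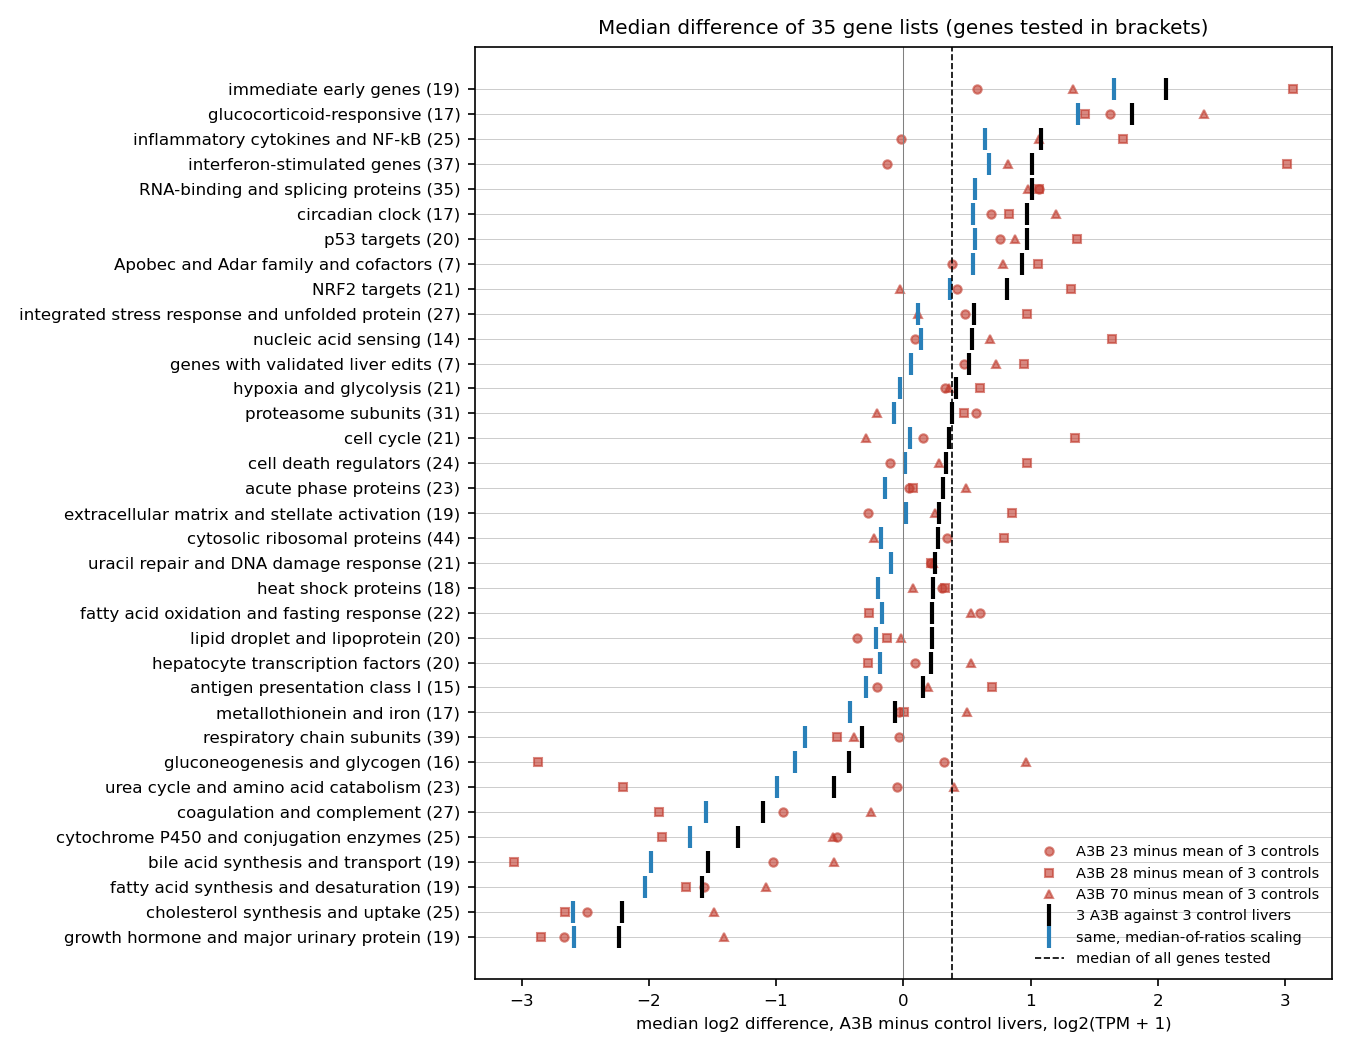
Median log2 difference of the genes tested in each of 35 lists (horizontal axis, log2(TPM + 1), A3B minus control livers). Red symbols give each A3B liver against the mean of the 3 controls, black bars the fit over all 6 livers, blue bars the same with median-of-ratios scaling and the dashed line the median of all genes, 0.39. Growth hormone and cholesterol genes lie lowest at -2.24 and -2.21 and immediate early genes highest at 2.07, and the interferon list spreads from -0.13 in liver 23 to 3.02 in liver 28.

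Cell type markers were read beside these lists. Kupffer cell and macrophage markers summed to 276 to 1086 RPM in A3B livers and 754 to 1054 in controls, and of 11 tested 9 had a negative difference, with a median of -0.89. In livers 23, 28 and 70 taken one at a time the median was -2.17, -1.23 and 0.61, so liver 70 went the other way. It was -0.014 by edgeR in the livers of other mice described below. Clec4f, specific to Kupffer cells, was at 49.5, 49.0 and 325 RPM in livers 23, 28 and 70 against 189, 269 and 243. Marco alone was called and rose, a call that was lost with median-of-ratios scaling. Cd68, at 22.2, 274 and 23.4 RPM against 16.0 to 19.1, and Itgam, at 7.30, 31.5 and 2.87 against 0.906 to 2.61, also lay above every control. Endothelial markers summed to 371 to 693 against 516 to 660, and 5 of 9 tested had a negative difference, with a median of -0.36. Lyve1, of lymphatic and sinusoidal endothelium, alone was called and rose, at 69.0, 168 and 59.6 TPM against 15.4, 6.78 and 5.23, whereas the sinusoidal Clec4g was at 12.6, 14.9 and 86.5 RPM against 81.5, 162 and 136. Cholangiocyte markers ranged from 8.6 to 189 in A3B livers and from 66.7 to 77.5 in controls, and T and NK cell markers from 3.4 to 75.4 and from 11.8 to 23.7. Lung epithelial markers summed to 7.8 to 51.9 in A3B livers against 1.8 to 4.9, of which Sftpa1, a surfactant protein that rose, made up 22.4, 4.13 and 50.3 in livers 23, 28 and 70, Ager 3.84, 2.69 and 0.652 against 0.246 to 0.604 in controls, while Sftpc had at most 1.12 RPM in any liver. The Sftpa1 call was lost with median-of-ratios scaling, and the part of lung RNA was not tested. Among pancreatic acinar markers Cela1, an elastase, fell from 52.7, 120 and 110 TPM in controls to 5.37, 9.44 and 9.59 and was the only 1 tested. Cela2a was lower too, with at most 0.473 RPM in A3B livers against 2.12 to 2.63 in controls. Ctrb1 went the other way, at 2.04, 0.189 and 0.104 RPM in livers 23, 28 and 70 against 0 in every control. Cpa1, Prss2, Pnlip and Try4 had at most 0.473 RPM in A3B livers and 0 in controls, and Amy2a5 is listed at 0. In bulk tissue fewer cells of a type and less RNA per cell cannot be told apart.

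The A3B livers did not move equally far. Among the 214 lower genes liver 70, treated for 10 days by its label, was the highest of the 3 A3B livers in 155 (72.4%), against 34.0% of all genes, and liver 28 the lowest in 116 (54.2%, against 30.03%). In the 699 higher genes liver 28 was the highest in 335 (47.9%), close to its 46.0% of all genes. With 1 liver at 10 days, animal and time of treatment cannot be told apart. Control 11 was the highest control in 562 of the 699 higher genes and in 6998 of all 11507.

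**Figure D4:**
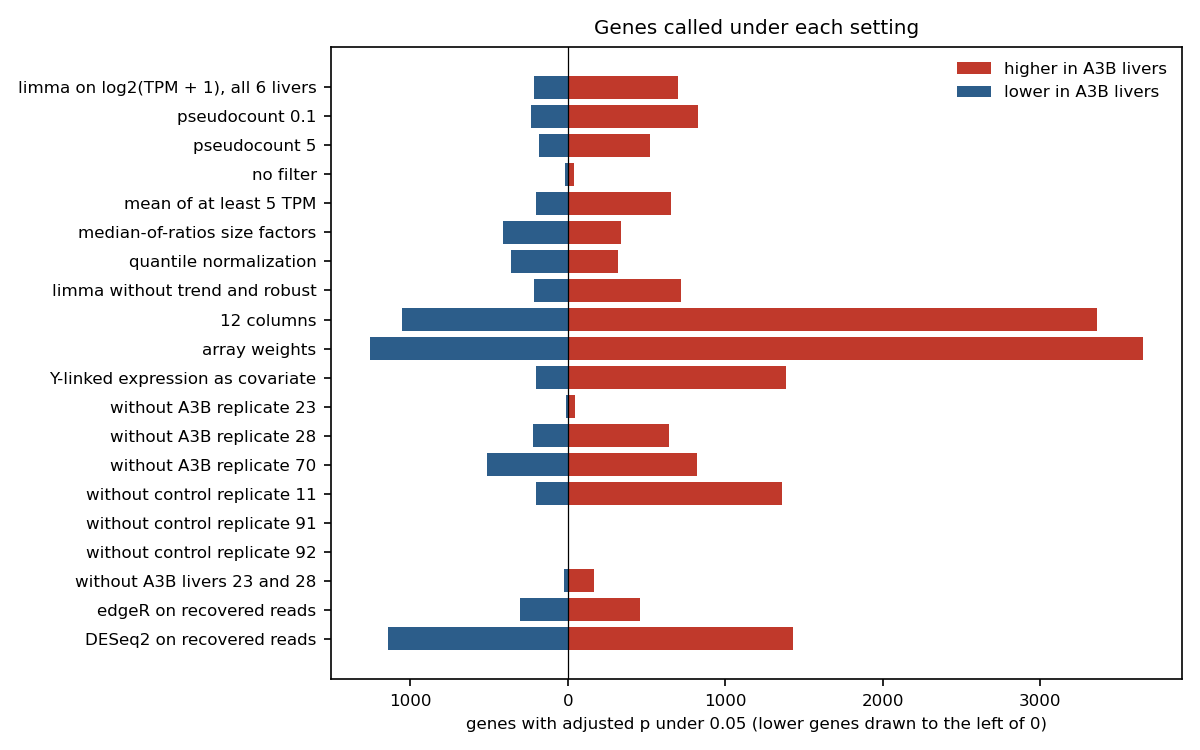
Number of genes with an adjusted p under 0.05, higher (red, to the right of 0) and lower (blue, drawn to the left of 0) in A3B livers, in each fit of the 6 livers. The bars shrink to 1 gene without control 91 and to 9 without control 92, and the split of 699 higher and 214 lower changes to 336 and 414 with median-of-ratios size factors.

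The same genes were looked up in 8 livers of other mice, 6 A3B and 2 controls, all labelled with 10 days, for which estimated counts from kallisto were deposited. There edgeR called 1.25% of 17290 genes higher and 2.39% lower. Of the 913 called genes, 838 were tested there, and 830 (99.05%) had the same sign, compared with 77.3% of all 10854 genes tested in both. Of the higher genes 108 of 638 (16.9%) were called higher, and of the lower genes 101 of 200 (50.5%) were called lower, and none was called in the opposite direction. The 209 shared calls dropped to 30 without control 45 of these mice and 31 without control 168, to 88 and 79 without A3B livers 44 and 137, and rose to 349 without A3B liver 49. Cholesterol synthesis had 11 of 25 genes lower there with a median log2 fold change of -2.14, fatty acid synthesis 10 of 19 and glucocorticoid-responsive genes 5 of 17 higher. Sult1e1, Lcn2, Defb1 and Scd1 had log2 fold changes of 9.68, 7.21, 6.64 and -7.92 in these livers, all called. Myc, at 1.38 (adjusted p = 0.332, edgeR), Per1 at 0.74 and the immediate early list, with 0 of 19 called by edgeR, were not.

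**Figure D5:**
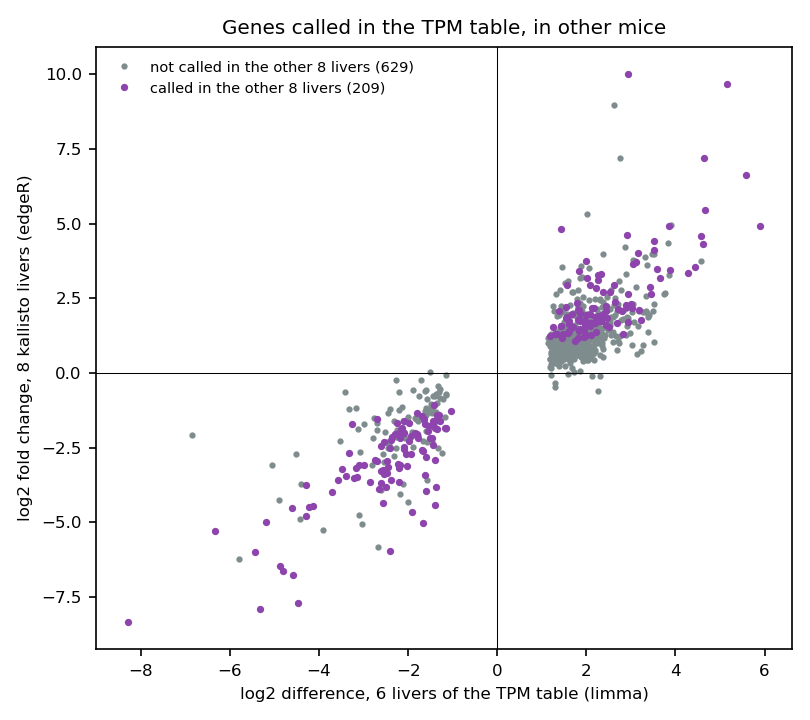
Log2 difference in the 6 livers of the TPM table (horizontal axis, limma) against the log2 fold change in the 8 kallisto livers of other mice (vertical axis, edgeR), 1 point for each of 838 genes called in the first. In 830 of them the sign was the same, and 209 (purple) were also called in the other mice.

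A3B lungs and control lungs in the same table allowed a test of whether the differences in the 2 tissues differed. Mouse 70 gave a liver and a lung with A3B, and mouse 91 a liver and a lung without it. The liver and lung differences themselves differed in 1448 of 13477 genes (10.7%, limma interaction), 4026 at an unadjusted p under 0.05. With the mouse as replicate block, since mice 70 and 91 gave both tissues, it was 2607. Leaving out 1 library gave 571 and 711 genes without control livers 92 and 91, 2825 and 3072 without control liver 11 and A3B liver 70, and 584 to 817 without any 1 of the 6 lungs. Many liver calls were shared with the lungs. Of genes called higher in liver, 677 were tested in the lungs alone, where limma called 286 higher and 38 lower. Of those called lower in liver 169 were tested there, with 70 called lower and 5 higher. The share of all genes called in lung was not set beside these counts. Some lungs held liver transcripts, with Alb at 245, 216, 190 and 23.6 TPM in lungs 88, 74, 70 and 91 against 3.8 and 0.33 in lungs 69 and 87, and the part of these in the interaction was not tested.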

How the data were processed

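The authors sequenced total RNA with a stranded kit, aligned reads to mm10 with STAR, marked duplicates with Picard and deposited TPM per gene, computed with GenomicAlignments and GenomicFeatures. Column headers name files with duplicates removed, which can compress abundant genes. Estimated counts of the 8 livers of other mice were made by the authors with kallisto and deposited per transcript, and here they were summed per gene and rounded. Here limma 3.58.1 (R 4.3.3, trend and robust variances, Benjamini-Hochberg threshold 0.05) was fitted to log2(TPM + 1) over the 6 livers, for genes averaging 1 TPM or more, and fold differences on that scale understate changes of low genes. Whole reads were recovered from the TPM steps (99.99% of 19660 genes whole, within 0.0194 reads), and edgeR 4.0.16 on them, an alternative chosen after seeing the data like DESeq2 1.42.0 on the same reads, called 766 genes of 14213, 460 higher and 306 lower. Genes were named by rule: the transgene, the 15 largest rises and 15 largest falls among called genes without overlap and with a group mean of at least 10 TPM, up to 5 members per list by p, and the Apobec, edited and marker genes. Other members were named after their values were seen. The samples, the 35 pathway lists, the 15 cell lists and the rules were chosen with earlier results of these data known. The values of some genes of the cholesterol list are not reported here. Controls 91 and 92 differed beyond counting noise in 59.9% of 11090 genes and were counted as separate samples. P-values measure the spread between these animals' libraries, and no A3B and control liver shared a mouse. On data simulated for this design limma recovered 96.5% of 200 4-fold changes at a dispersion of 0.05, with 22 of 215 calls false, and 22.5% at 0.25, with 7 of 52 false, and the biological coefficient of variation in these livers was 0.512. Gene positions are from GENCODE M21 (GRCm38), and figures were drawn with matplotlib 3.10.9. Alternatives were other pseudocounts, filters, scalings, tools, covariates and single libraries left out.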

Additional observations from a re-analysis of the deposited data

Results flagged for a closer look

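The A3B difference in liver and that in lung differed, by a test of the interaction (limma, adjusted p under 0.05), in 1448 genes. The genes named here were chosen by their liver difference, so that an excess over the lung follows in part from the choice and is a description. Among the largest rises the liver difference exceeded the lung difference by 3.74 in log2 for Plin4, 4.28 for Sult1e1, 4.21 for Lcn2, 4.49 for Hilpda, 4.40 for Tuba8, 2.88 for AA986860, 4.85 for 4732416N19Rik, 3.75 for Usp18 and 3.37 for Mir191. For the largest falls the liver difference minus the lung difference was -6.17 for Serpina4-ps1, -5.27 for Mup9, -5.56 for Hsd3b5, -5.31 for Scd1, -4.85 for Slc22a7, -5.56 for Selenbp2, -4.41 for Dio1, -3.76 for Serpina12, -3.93 for Slco1a1, -5.50 for Enho and -4.44 for Mup12. Of the same 15 rises and 15 falls, Defb1, Pdk4, Cidec, Mir7666, Gm11827, Igfbp1, Car3, Cyp1a2, Ces3b and Mup3 did not pass this test. The Alb values of the lungs are given with this comparison above, and their part in these differences was not tested.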

How the results depend on the processing

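The transgene difference kept its direction under each alternative run and its side of the threshold under each but edgeR on reads without control 91 (log2 fold change 13.13, adjusted p = 0.052, edgeR), where no gene passed, and by edgeR on reads with 1 liver left out its log2 fold change ran from 12.67 to 13.33. The 91 called mouse genes of the naming rule also kept their direction under each alternative that tested them, which follows in part from their choice in the same livers. For the edgeR fits with 1 liver left out single genes were not compared. The number of the 91 that passed moved. With a pseudocount of 5 TPM 76 of the 91 passed, with median-of-ratios scaling 72, with no filter 12, by edgeR on reads 64 of 89, by DESeq2 88, without control 11 74, without A3B liver 23 14, without control 92 3 and without control 91 0. The count of 913 called genes was 54 with no filter, 4414 with the lungs in the fit, 4913 with array weights, 1592 with Y-linked expression as covariate, 191 without A3B livers 23 and 28, 2572 with DESeq2 on reads, and from 1 to 1562 when 1 liver was left out. By edgeR on reads it was 15 without A3B liver 23, 1748 without liver 70, 0 without control 91 and 24 without control 92. The array weights were 3.87 and 5.31 for controls 91 and 92 against 0.221 for A3B liver 28 and 0.346 for control 11, so that fit rests mostly on the 2 controls that resemble each other. The 209 calls shared with the kallisto livers were 444 with DESeq2, 314 with limma, and from 30 to 349 when 1 library was left out. Of the liver minus lung differences, 1448 in all, 2607 passed with the mouse as replicate block and from 571 to 3072 with 1 library left out. No paired analysis was possible because of the 6 livers no A3B and control liver shared a mouse. The cause of these changes was not tested.

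List medians moved with the scaling. With median-of-ratios size factors they were -2.03 for fatty acid synthesis, -0.21 for lipid droplets, -0.14 for acute phase proteins, 0.12 for the integrated stress response, -0.20 for heat shock proteins, 0.56 for p53 targets, -0.094 for uracil repair, -0.42 for metal genes, 0.55 for the clock, -0.027 for hypoxia, -0.77 for the respiratory chain, -0.070 for the proteasome, 0.55 for Apobec and Adar, 0.062 for edited genes and 0.57 for RNA-binding proteins. By edgeR on reads they were -1.92 for fatty acid synthesis, -0.15 for acute phase proteins, -0.22 for heat shock proteins, -0.11 for uracil repair, 0.68 for the clock, 1.06 for glucocorticoid-responsive genes, -0.74 for the respiratory chain, 0.56 for Apobec and Adar, 0.11 for edited genes, 0.65 for RNA-binding proteins and -0.43 for extracellular matrix. A pseudocount of 0.1 gave 0.34 for uracil repair. With 1 liver left out the medians ran from -1.83 to -1.20 for fatty acid synthesis, -0.11 to 0.69 for lipid droplets, 0.11 to 0.36 for uracil repair, 1.19 to 2.22 for glucocorticoid-responsive genes, 0.30 to 0.59 for hypoxia, 0.58 to 1.32 for Apobec and Adar and 0.89 to 1.30 for RNA-binding proteins. For 5 further lists the end nearest to 0 came without A3B liver 28, at -0.61 for cytochrome P450 genes, -0.84 for bile acids, -0.68 for coagulation and complement, 1.12 for immediate early genes and 0.43 for interferon-stimulated genes. Mir7666 and Mir191 rest on few reads.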
